A study of Mus musculus with 12 samples.

Results

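The unfolded protein response and the integrated stress response were examined in mouse livers overexpressing ChREBP through 32 genes listed by symbol, and all 32 were present among the 22309 genes of the arrays. The livers were taken from male mice of the C57BL/6J strain, 10 weeks old, after they had received an adenovirus with either GFP, the control, or ChREBP, a transcription factor activated by glucose that turns on genes of glycolysis and of fat synthesis. There were 6 livers of separate mice per group (GFP livers 1 to 6 and ChREBP livers 1 to 6), each on its own array. Both groups therefore carried adenovirus, and there was no uninfected group. By the study's methods, the livers of this model were examined some weeks after the injection. The methods of the study stated that mice without overexpression were removed from the experiment, and the promoter of the virus was not given in the sources used here. Values are log2 expression levels, so a difference of 1 is a doubling. The liver was profiled in bulk, so fewer cells of a type and less RNA per cell cannot be told apart, and neither cell type markers nor the level of ChREBP itself were analysed here.

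The endoplasmic reticulum (ER) folds the secreted proteins that hepatocytes make in large amounts. When unfolded protein accumulates there, 3 sensors of the ER membrane, encoded by Ern1, Eif2ak3 and Atf6, raise chaperones, disulfide isomerases and the machinery of ER-associated degradation (ERAD), which returns misfolded protein to the cytosol to be destroyed. Phosphorylation of the translation factor eIF2, by the product of Eif2ak3 or by kinases that sense other stresses such as amino acid shortage, starts the integrated stress response, in which general translation falls while ATF4 protein is made and switches on its own target genes. Because ATF4 is largely controlled through translation, and the sensors and XBP1 through protein or RNA processing, the levels of their transcripts are not a measure of their activity.

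Most genes of ER folding and ERAD (15 of 18) were lower in ChREBP livers. Of the 9 members of the integrated stress response, Atf3, Ddit3, Sesn2 and Trib3 were higher, Atf5 was lower and 4 did not pass the test. Of the 32 members, 19 fell, 4 rose and 9 did not pass the test (limma, with an adjusted p under 0.05 after Benjamini-Hochberg correction across the 22309 genes). The 19 lower members made up 59.4% of the list, against 14.0% of all genes tested. The 4 higher members made up 12.5% of the list, near the 12.2% of all genes that rose. Over the whole list, the share of higher members was therefore close to that of genes in general. All 4 belonged to the integrated stress response, where they were 44.4% of 9 members. All 32 members lay above the 50th percentile of mean level, some of them not far above the array medians of 5.99 to 6.09. Among the dimmest were Trib3 and Sesn2, which rose (medians 6.06 and 6.34 in GFP livers), and Derl3, which fell (6.46 in ChREBP livers). With the fit run only on genes above that percentile, 21.8% of genes were lower and 21.5% higher. In that fit 20 members were lower and 4 higher. The 12.5% of higher members was below that 21.5%. The split over all genes moved with the scaling, to 22% lower and 10.7% higher after centring each array on its median and to 10.5% lower and 14.5% higher after cyclic loess normalization, while the members then split into 21 lower and 4 higher, and 19 lower and 4 higher. With a change of at least 1.5-fold in addition, 5 members were lower (Hyou1, Creld2, Sdf2l1, Pdia4 and Manf, 15.6% against 1.52% of all genes) and 2 were higher (Atf3 and Sesn2, 6.25% against 3.73%). Manf (1.5-fold) and Sesn2 (1.51-fold) lay at this cutoff, and 5 to 9 members passed it under the alternatives described at the end. All ChREBP livers lay below all GFP livers for 14 members (43.8%, against 6.72% of all genes) and above them for 4 (12.5%, against 7.68%). The median log2 change was -0.33 over the members and -0.05 over all genes.

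**Figure D1:**
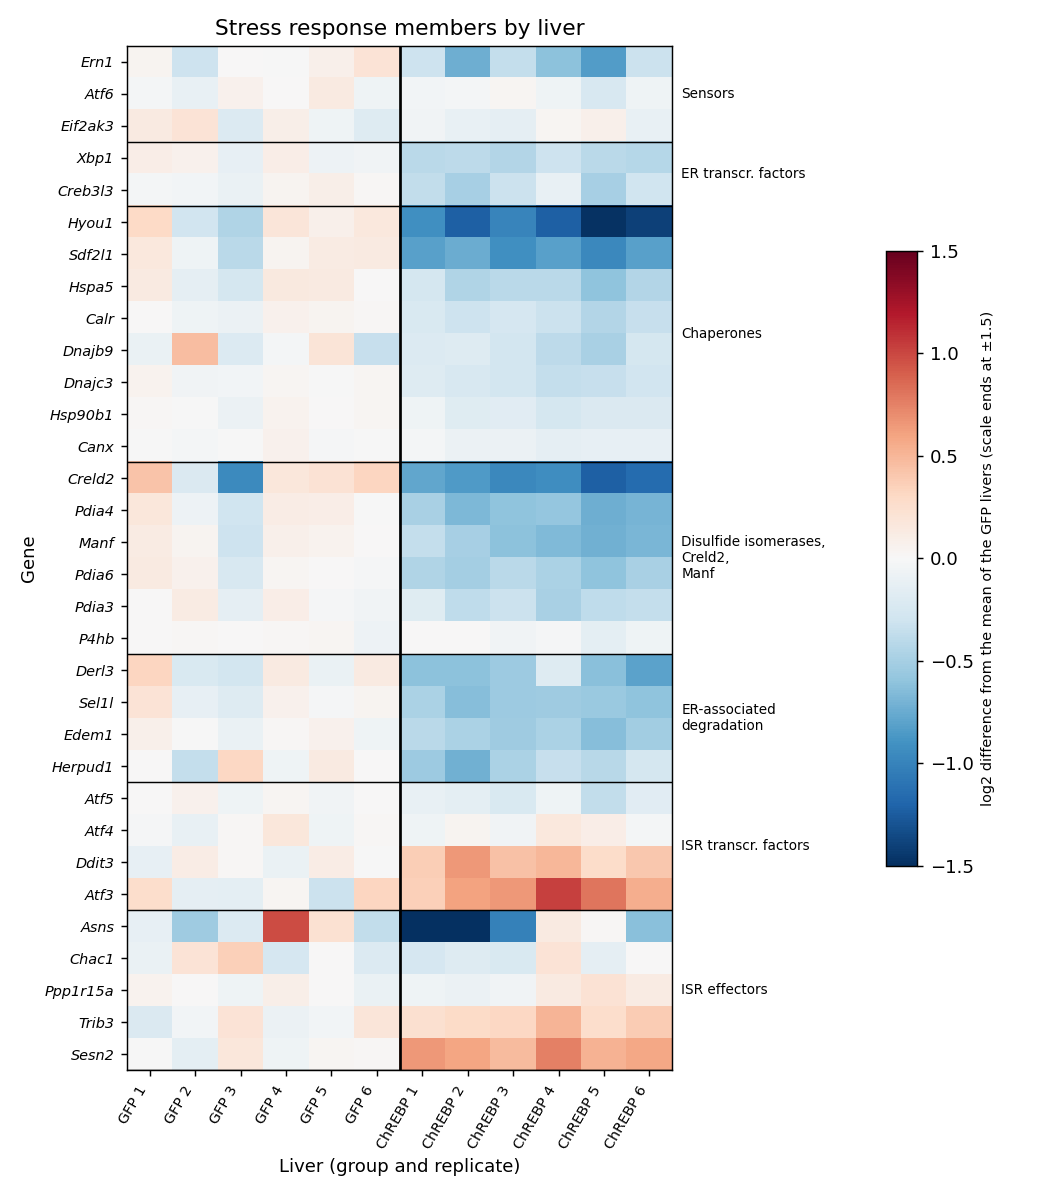
Log2 difference of each member (rows, by role) from the mean of the GFP livers in each of the 12 livers (columns). Blue marks lower and red higher levels, and values beyond ±1.5 take the end colour, as for Asns in ChREBP livers 1 and 2. Most genes of ER folding and ERAD are blue in the ChREBP livers, with Hyou1 and Creld2 the darkest of them and P4hb near white, while Atf3, Ddit3, Sesn2 and Trib3 are red.

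Some arrays stood apart from their group. ChREBP livers 4, 5 and 6 and GFP liver 6 had 47, 105, 38 and 62 genes at more than 4-fold the median of the other livers of their group, against 0 to 4 in each of the other livers. Array medians were alike, at 5.99 to 6.09. Without these 4 livers 17 members were lower and 4 were higher, and the calls of Creld2, Hsp90b1 and Atf5 were lost and Asns was gained, as given beside those genes.

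Of the sensors, Ern1 fell in ChREBP livers, whereas no change was detected for Atf6 or Eif2ak3. Ern1 (ENSMUSG00000020715_at) encodes the kinase and RNase IRE1α, which splices the Xbp1 transcript. Its level was 7.93, 8.26 and 8.45 (lowest, median and highest) in GFP livers and 7.40, 7.76 and 7.93 in ChREBP livers. GFP liver 2, the lowest of its group, was level with the highest ChREBP livers, and the other GFP livers lay above all ChREBP livers. The log2 change of Ern1 was -0.53 (SE 0.11, adjusted p = 0.00232). Atf6 (ENSMUSG00000026663_at), a membrane-bound transcription factor that is released by cleavage, ranged from 9.48 to 9.72 (median 9.58) in GFP and from 9.35 to 9.62 (median 9.54) in ChREBP livers. Its log2 change was -0.07 (95% interval -0.18 to 0.05, adjusted p = 0.383). Eif2ak3 (ENSMUSG00000031668_at) encodes PERK, the sensor that phosphorylates eIF2. It ranged from 7.04 to 7.45 (median 7.25) in GFP and from 7.11 to 7.32 (median 7.16) in ChREBP livers, with a log2 change of -0.05 (95% interval -0.21 to 0.12, adjusted p = 0.669). For both genes the groups overlapped, and the intervals leave room for changes of up to about 0.2 on the log2 scale.

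Apart from Atf6, given above as a sensor, the transcription factors of the ER arm were Xbp1 and Creb3l3, and both fell. Xbp1, the transcript that IRE1α splices and a driver of chaperone and ERAD genes, was at 9.03, 9.15 and 9.25 (lowest, median and highest) in GFP livers and at 8.71, 8.74 and 8.84 in ChREBP livers. The groups were apart by 0.19, with a log2 change of -0.40 (SE 0.05, adjusted p = 4.39e-05). The array value covers the gene as a whole, so the spliced and unspliced forms were not separated. Creb3l3 encodes CREBH, an ER-anchored transcription factor of hepatocytes that regulates lipid and acute phase genes. It ranged from 8.98 to 9.17 in GFP and from 8.58 to 8.97 in ChREBP livers, a log2 change of -0.35 (SE 0.07, adjusted p = 0.0014). The groups of Creb3l3 were apart by only 0.01, because ChREBP liver 4 was at 8.97, above the other ChREBP livers at 8.78 or lower.

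**Figure D2:**
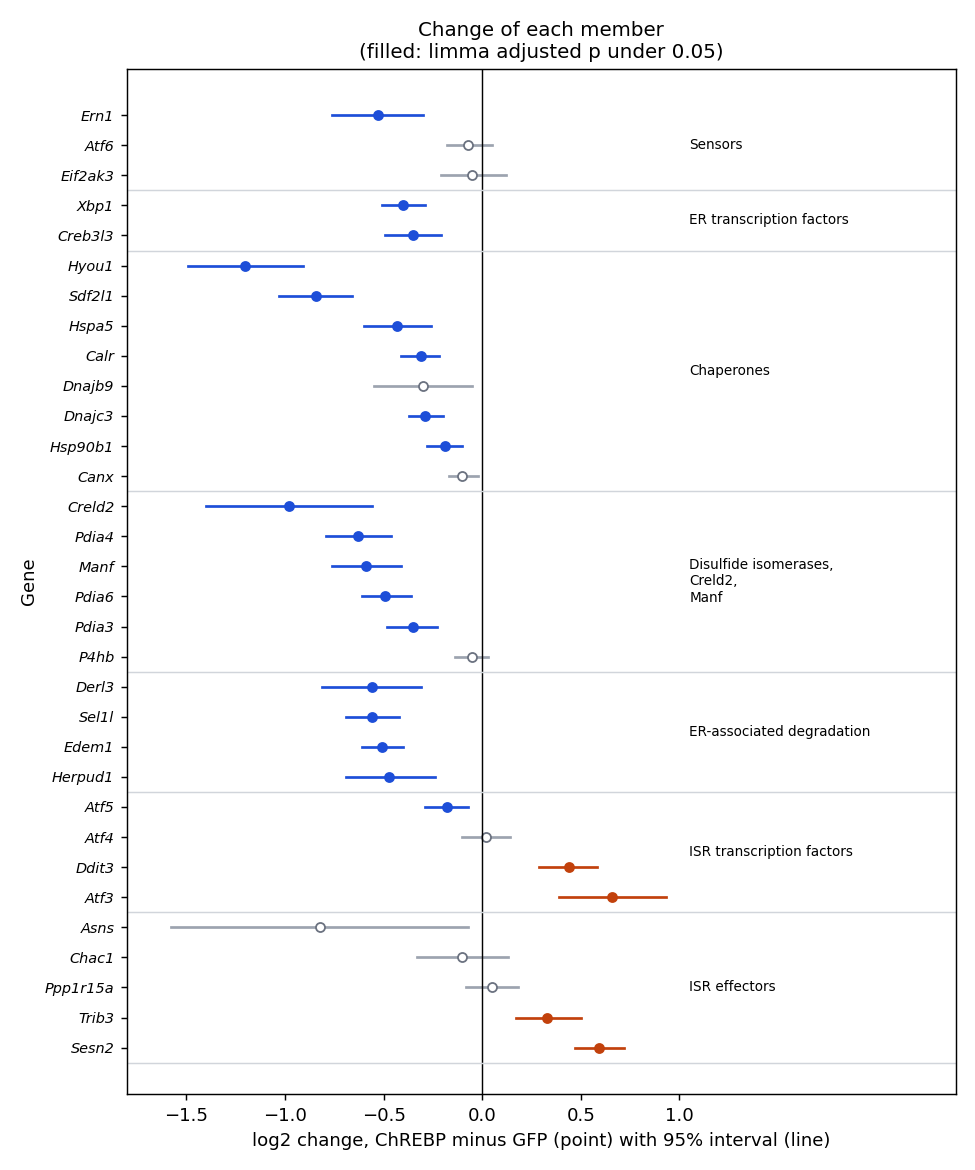
Log2 change of each member, ChREBP minus GFP (points), with its 95% interval (lines), arranged by role. Filled points passed the test (limma adjusted p under 0.05, 6 livers per group), blue for lower and red for higher, and open grey points did not. All 18 genes of ER folding and ERAD lie left of 0, from -1.20 for Hyou1 to -0.05 for P4hb.

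All 8 chaperones and co-chaperones had negative changes, and 6 of them passed the test (75%, against 14.0% of all genes that were lower). Hyou1 (ENSMUSG00000032115_at), which encodes a large ER chaperone and nucleotide exchange factor for BiP, showed the largest change of any member. Its level was 9.27, 9.84 and 10.02 (lowest, median and highest) in GFP livers and 8.24, 8.50 and 8.80 in ChREBP livers. Every ChREBP liver was below every GFP liver, by at least 0.47. The log2 change was -1.20 (SE 0.13, adjusted p = 1.92e-05), a level 2.30-fold higher in GFP livers. Sdf2l1 (ENSMUSG00000022769_at), a partner of ER-resident DnaJ proteins that helps keep BiP clients soluble, was at 8.48, 8.97 and 9.05 in GFP and at 7.92, 8.08 and 8.14 in ChREBP livers, with a change of -0.84 (SE 0.09, adjusted p = 9.01e-06). The ChREBP livers lay in a range of 0.22, while GFP liver 3 was below the other GFP livers, at 8.48 against 8.83 or more.

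The central chaperones of the ER fell less. Hspa5 encodes BiP, the Hsp70 of the ER that binds unfolded chains and holds the sensors inactive. It was at 11.96, 12.28 and 12.37 in GFP and at 11.62, 11.80 and 11.96 in ChREBP livers, a log2 change of -0.43 (SE 0.08, adjusted p = 0.00107). All but 1 of the ChREBP livers lay below the lowest GFP liver, and ChREBP liver 1 was level with GFP liver 3. Calr, calreticulin, a chaperone of glycoproteins in the ER lumen, changed by -0.31 (adjusted p = 0.000171), and Dnajc3, a co-chaperone of BiP, by -0.29 (adjusted p = 0.00016), both without overlap between the groups. Hsp90b1, the Hsp90 of the ER, changed by -0.19 (adjusted p = 0.00536). That call was lost without ChREBP livers 4, 5 and 6 and GFP liver 6 (change -0.13, adjusted p = 0.132, the highest over all alternatives, the lowest adjusted p being 0.000707). Canx, calnexin, the membrane-bound counterpart of calreticulin, had a change of -0.10 (95% interval -0.17 to -0.02) and did not pass the test (adjusted p = 0.0567), although its groups did not overlap. It passed under 6 of 24 alternatives, 1 of which used an unadjusted p, and among them was the fit without ChREBP liver 1 (adjusted p = 0.0457). After cyclic loess normalization its change was -0.03 (adjusted p = 0.512). Dnajb9, a BiP co-chaperone that represses IRE1α, had a change of -0.30 (95% interval -0.55 to -0.05, adjusted p = 0.0735). Its GFP livers were spread from 9.54 to 10.34, and without GFP liver 6, the lowest of them, the change was -0.36 and the adjusted p 0.0274 (range 0.0274 to 0.219 over all alternatives).

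The disulfide isomerases, which form and rearrange disulfide bonds, fell by different amounts. Pdia4 (ENSMUSG00000025823_at) was at 10.86, 11.21 and 11.33 (lowest, median and highest) in GFP and at 10.43, 10.53 and 10.67 in ChREBP livers, with a log2 change of -0.63 (SE 0.08, adjusted p = 3.55e-05). Pdia6 changed by -0.49 (SE 0.06, adjusted p = 4.05e-05), and Pdia3, the isomerase that works with calnexin and calreticulin, by -0.35 (SE 0.06, adjusted p = 0.000492). None of these 3 genes overlapped between the groups, as held in the lower direction for 6.72% of all genes. P4hb, the classical protein disulfide isomerase and also a subunit of collagen prolyl hydroxylase and of the microsomal triglyceride transfer complex, was at 11.85 to 11.96 in GFP and at 11.78 to 11.93 in ChREBP livers. Its change of -0.05 did not pass the test (95% interval -0.14 to 0.03, adjusted p = 0.354), and it was 0.01 after a cyclic loess normalization, where the sign turned.

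Creld2 and Manf, small ER proteins that are secreted in part and are known for their induction by ER stress, fell as well. Creld2 (ENSMUSG00000023272_at) was at 8.63, 9.77 and 10.01 (lowest, median and highest) in GFP and at 8.35, 8.63 and 8.80 in ChREBP livers, a change of -0.98 (SE 0.19, adjusted p = 0.00203). GFP liver 3 was at 8.63, inside the range of the ChREBP livers, and the other GFP livers were at 9.36 or more. Without GFP liver 3 the change was -1.17 (adjusted p = 1.28e-05), and without ChREBP livers 4, 5 and 6 and GFP liver 6 it was -0.80 and no longer passed the test (adjusted p = 0.0532, the highest over all alternatives). Manf (ENSMUSG00000032575_at) was at 10.41, 10.77 and 10.84 in GFP and at 10.00, 10.09 and 10.36 in ChREBP livers, a change of -0.59 (SE 0.08, adjusted p = 0.000101). The groups of Manf were apart by 0.05, again through GFP liver 3.

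All 4 members of ERAD fell (100%, against 14.0% of all genes), by similar amounts. Sel1l, the adaptor of the HRD1 ubiquitin ligase, changed by -0.56 (SE 0.06, adjusted p = 2.03e-05), with GFP livers from 9.99 to 10.39 and ChREBP livers from 9.54 to 9.70. Edem1, which directs misfolded glycoproteins to degradation, changed by -0.51 (SE 0.05, adjusted p = 4.71e-06), with GFP livers from 9.82 to 10.00 and ChREBP livers from 9.28 to 9.52. The groups were apart by 0.29 for Sel1l and by 0.30 for Edem1. Derl3, of the derlin family of membrane proteins in the ERAD channel, changed by -0.56 (SE 0.12, adjusted p = 0.00262), and ChREBP liver 4, at 6.89, reached into the GFP range of 6.80 to 7.40. Herpud1, an ER membrane protein that organises the HRD1 complex, changed by -0.47 (SE 0.10, adjusted p = 0.0044). Its order among the livers differed from that of the chaperones, since GFP liver 3 was the highest (11.18) and GFP liver 2 the lowest (10.51), within the ChREBP range of 10.15 to 10.61. Over chaperones, isomerases, Creld2, Manf and ERAD together, 15 of 18 genes fell (83.3%, against 14.0% of all genes) and 0 rose. All 18 changes were negative, with a median log2 change of -0.48, against -0.05 over all genes. At an unadjusted p under 0.05, 17 of the 18 were lower and 0 higher, against 23.5% and 15.8% of all genes.

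No promoter window was available for Hyou1, Atf6 and Manf, so these genes were not searched. For the other 29 of the 32 members, promoter sequences were read from RefSeq (GRCm38.p6). The windows ran from 250 bases before to 50 after the gene start. Some sequences are shown because several genes of ER folding and ERAD share the ER stress response element, the site through which ATF6, with the factor NF-Y, acts on chaperone genes. The element was searched as CCAAT followed by 9 bases of any kind and CCACG, on both strands. It was found in 8 of 29 member genes (27.6%), against 0.119% of all 32851 windows. A gene counted if any of its windows held the motif, and the 29 genes had 31 windows. Shares of members are thus per gene and those of the background per window, here and for the motifs below. The 8 genes were Hspa5, Hsp90b1, Calr, Canx, Dnajc3, Pdia6, Creld2 and Derl3, all of ER folding and ERAD, and 7 of them fell while Canx did not pass the test, against 15 that fell of all 18 genes of ER folding and ERAD. In the stretches below, 5′ to 3′ on the strand of the gene, capitals mark the element, which reads CGTGG first where it lies on the opposite strand. All lie upstream of the start.
Hspa5 (chr2:34772009-34772059, plus strand): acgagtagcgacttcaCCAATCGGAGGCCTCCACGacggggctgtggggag
Pdia6 (chr12:17266475-17266525, plus strand): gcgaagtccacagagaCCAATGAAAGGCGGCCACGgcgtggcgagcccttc
Dnajc3 (chr14:118937811-118937861, plus strand): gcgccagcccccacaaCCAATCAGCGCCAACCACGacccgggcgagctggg
Canx (chr11:50325784-50325834, minus strand): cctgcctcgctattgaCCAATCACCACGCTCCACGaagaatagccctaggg
Creld2 (chr15:88819504-88819554, plus strand): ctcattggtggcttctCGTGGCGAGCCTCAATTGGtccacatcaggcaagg
Derl3 (chr10:75893226-75893276, plus strand): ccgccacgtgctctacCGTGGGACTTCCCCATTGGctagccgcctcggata
Calr (chr8:84847059-84847109, minus strand): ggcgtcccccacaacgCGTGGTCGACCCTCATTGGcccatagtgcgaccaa
Hsp90b1 (chr10:86705517-86705672, minus strand): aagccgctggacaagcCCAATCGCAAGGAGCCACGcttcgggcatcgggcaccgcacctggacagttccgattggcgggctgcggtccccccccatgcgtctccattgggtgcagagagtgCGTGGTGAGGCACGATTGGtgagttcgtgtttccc

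Hsp90b1 held 2 copies of the element, in opposite orientations, and the others 1 copy each. The element lay closest to the start in Hspa5, at positions -65 to -47, and its farthest copy was that of Hsp90b1 at -212 to -194. The size of the change differed widely between genes that shared it, from -0.10 for Canx to -0.98 for Creld2. A related element, ATTGG and CCACG separated by a single base, occurred in 0.0365% of all windows and in 1 member, Herpud1.
Herpud1 (chr8:94386361-94386403, plus strand): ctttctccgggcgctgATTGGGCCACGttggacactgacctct

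The site TGACGTGG, bound by ATF6 and XBP1 proteins, was in 0 of the 29 member genes and in 0.676% of all windows. The E-box CACGTG was in 3 members (Calr, Derl3 and Dnajb9, 10.3%) and in 7.15% of all windows. The carbohydrate response element, the type of site through which ChREBP acts, was searched only as an exact pair of this E-box spaced by 5 bases. The exact pair was in 0 of the member promoters and in 0 of all windows. This search could therefore not set the members apart from other genes, and it does not show that the element is absent. These matches describe only the letters of short windows.

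The integrated stress response members did not move together. Of 9 genes, 4 rose (44.4%, against 12.2% of all genes), 1 fell (11.1%, against 14.0%) and 4 did not pass the test. Among genes above the 50th percentile of mean level, 21.5% were higher. Among its transcription factors, Atf4, the central one, was at 8.75, 8.86 and 9.03 (lowest, median and highest) in GFP livers and at 8.79, 8.86 and 9.02 in ChREBP livers. These ranges were nearly the same, with a log2 change of 0.02 (95% interval -0.10 to 0.14, adjusted p = 0.816) whose sign turned under 5 of 24 alternatives. Atf3 (ENSMUSG00000026628_at), a stress-induced factor of the same family, was at 6.36, 6.63 and 7.00 in GFP and at 7.04, 7.30 and 7.70 in ChREBP livers. ChREBP liver 4 was the highest, and the groups were apart by 0.04. Its log2 change of 0.66 (SE 0.12, adjusted p = 0.00137) was the largest rise among the members. Ddit3 encodes CHOP, a factor linked to cell death under lasting stress. Its level was 7.36, 7.48 and 7.59 in GFP and 7.75, 7.90 and 8.13 in ChREBP livers, apart by 0.16, with a log2 change of 0.44 (SE 0.07, adjusted p = 0.000232). Atf5, an ATF4-related factor, fell slightly, by 0.18 on the log2 scale (SE 0.05, adjusted p = 0.0223), with the highest ChREBP and the lowest GFP liver both at 8.73. The call of Atf5 was lost without ChREBP livers 4, 5 and 6 and GFP liver 6 (adjusted p = 0.0784, range of the adjusted p 0.00936 to 0.0784 over all alternatives).

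**Figure D3:**
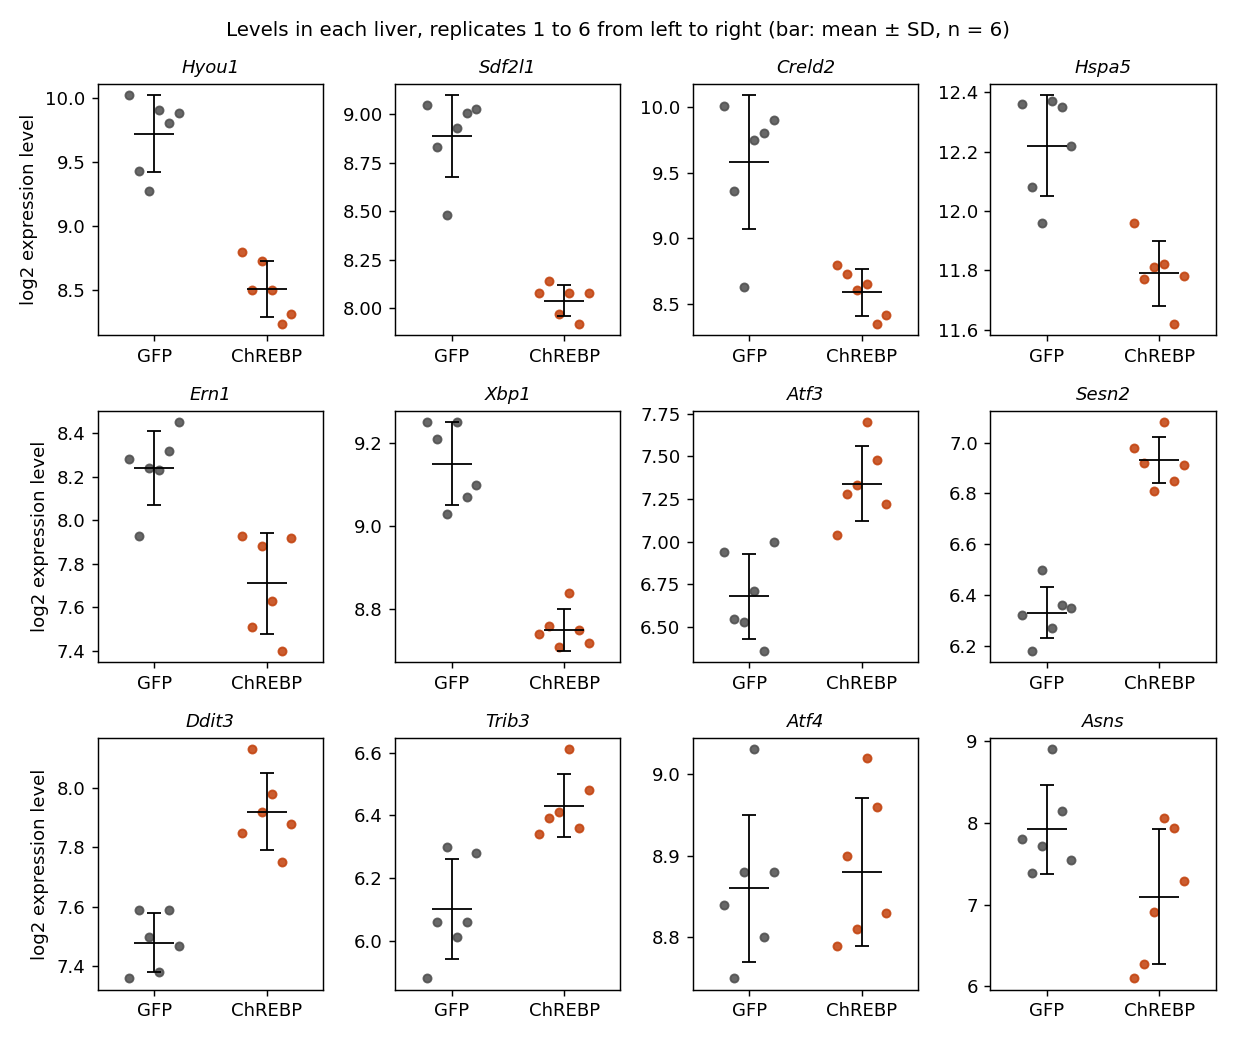
Log2 expression level of 12 members in each liver, with the mean and SD of each group (n = 6). The axes do not start at 0 and differ between genes. The groups are apart for Hyou1, Sdf2l1, Xbp1, Atf3, Sesn2, Ddit3 and Trib3, GFP liver 3 lies among the ChREBP livers for Creld2, and the ChREBP livers span 6.10 to 8.06 for Asns.

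Of the 5 effector genes, 2 rose (40%, against 12.2% of all genes). Sesn2 (ENSMUSG00000028893_at), which encodes a leucine-binding inhibitor of mTORC1 signalling, was at 6.18, 6.34 and 6.50 (lowest, median and highest) in GFP and at 6.81, 6.92 and 7.08 in ChREBP livers. The groups were apart by 0.31, more than for any other member that rose, and the log2 change was 0.59 (SE 0.06, adjusted p = 5.83e-06). Trib3, a pseudokinase that binds AKT and is induced by ATF4 and CHOP, was at 5.88, 6.06 and 6.30 in GFP and at 6.34, 6.40 and 6.61 in ChREBP livers, a change of 0.33 (SE 0.07, adjusted p = 0.00466). The gap between the groups of Trib3 was 0.04, since GFP livers 3 and 6 were at 6.30 and 6.28. No change was detected for Chac1, a glutathione-degrading enzyme that is a frequent marker of ATF4 activity (log2 change -0.10, 95% interval -0.33 to 0.13, adjusted p = 0.512). The same held for Ppp1r15a, which encodes GADD34, the phosphatase subunit that reverses eIF2 phosphorylation (0.05, 95% interval -0.08 to 0.18, adjusted p = 0.581). Within the ChREBP group Ppp1r15a was at 7.07, 7.15 and 7.05 in livers 4, 5 and 6, above all GFP livers, and at 6.84 to 6.88 in livers 1, 2 and 3, and its sign turned under 3 of 24 alternatives.

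Asns, which encodes asparagine synthetase, an ATF4 target that responds to amino acid supply, varied more between livers than any other member. ChREBP livers 1 to 6 were at 6.10, 6.28, 6.91, 8.06, 7.94 and 7.29, and GFP livers 1 to 6 at 7.80, 7.39, 7.72, 8.90, 8.15 and 7.55. ChREBP livers 1, 2, 3 and 6 lay below all GFP livers, whereas ChREBP livers 4 and 5 lay inside the GFP range. The SD was 0.82 in ChREBP and 0.54 in GFP livers. With all livers the log2 change was -0.82 and did not pass the test (SE 0.35, 95% interval -1.58 to -0.07, adjusted p = 0.10). ChREBP livers 4 and 5 are among those with many genes far above their group. Without ChREBP livers 4, 5 and 6 and GFP liver 6 the change was -1.56 (adjusted p = 0.00499), with array weights it was -1.05 (adjusted p = 0.0309), and without ChREBP liver 4 it was -1.02 (adjusted p = 0.0413). In a fit without ChREBP livers 4 and 5, chosen after seeing the data, it was -1.27 (adjusted p = 0.00877). With the replicate number as a block the change was -0.82 (adjusted p = 0.0129). Over all alternatives the adjusted p ranged from 0.00499 to 0.198.

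The ATF4 composite element was searched as its core TGATGNAA on both strands. It was found in 5 of 29 member genes (17.2%), namely Asns, Atf3, Chac1, Trib3 and Herpud1, and in 3.97% of all windows. Members that held it differed in direction. Atf3 and Trib3 rose, Herpud1 fell, and Asns and Chac1 did not pass the test. In Trib3 the match lay after the gene start and is not shown. In the stretches below capitals mark the core, which reads TTGCATCA where it lies on the opposite strand.
Atf3 (chr1:191183420-191183459, minus strand): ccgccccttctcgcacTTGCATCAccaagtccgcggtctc
Chac1 (chr2:119351033-119351072, plus strand): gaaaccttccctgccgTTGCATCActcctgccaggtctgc
Asns (chr6:7693210-7693248, minus strand): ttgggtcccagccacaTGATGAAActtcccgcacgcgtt
Herpud1 (chr8:94386301-94386340, plus strand): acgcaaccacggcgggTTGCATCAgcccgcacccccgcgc

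Atf3, Chac1 and Herpud1 carried the same TTGCATCA core, at positions -110 to -103, -193 to -186 and -112 to -105, and their log2 changes were 0.66, -0.10 and -0.47.

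Within each group some livers were high or low for the ER genes as a whole. Of the 18 genes of ER folding and ERAD, 13 had their lowest GFP level in GFP liver 3 and 10 their highest in GFP liver 1. Among ChREBP livers, 11 of the 18 had their lowest level in ChREBP liver 5 and 12 their highest in ChREBP liver 1. The same ranks were not counted over all genes. ChREBP liver 5 also had 105 genes at more than 4-fold the median of the other ChREBP livers. The mean difference of the 18 genes from the GFP mean was -0.21 in GFP liver 3 and -0.05 to 0.11 in the other GFP livers, against -0.59 to -0.39 in ChREBP livers. Every ChREBP liver was therefore lower on this mean than GFP liver 3. The SD was larger in the GFP group for 11 of these 18 genes (61.1%), against 52.7% of all genes.

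The factors and effectors of the integrated stress response followed another order of livers. For the mean of its 4 transcription factors ChREBP liver 4 was the highest (0.40), and the other ChREBP livers were at 0.14 to 0.28, above the GFP livers at -0.08 to 0.08. For the mean of its 5 effectors ChREBP livers 1, 2 and 3 were at -0.25 to -0.10 and ChREBP livers 4, 5 and 6 at 0.09 to 0.35, while GFP livers were at -0.10 to 0.13. These means are given as a description.

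**Figure D4:**
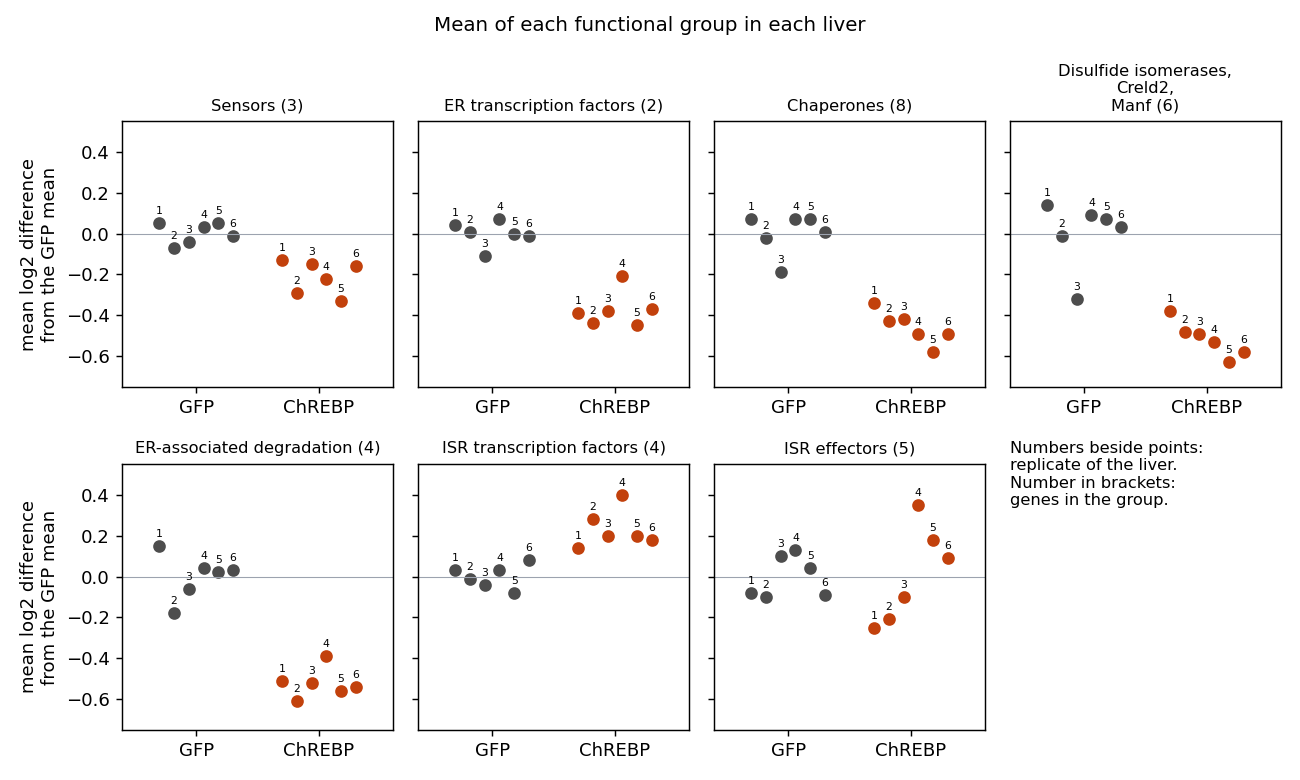
Mean log2 difference from the GFP mean over the members of each functional group, for each liver (points, numbered by replicate, grey for GFP and orange-red for ChREBP). In the chaperone, isomerase and ERAD panels the ChREBP livers lie between -0.63 and -0.34, below all GFP livers, while in the panel of effectors ChREBP livers 4, 5 and 6 lie above ChREBP livers 1, 2 and 3.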

How the data were processed

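RNA from 6 GFP and 6 ChREBP livers was hybridised to Affymetrix Gene ST arrays, of the mouse 1.0 design by the labels and of a human 2.0 design by the study's methods. The rows carried mouse gene identifiers. The authors deposited log2 values made by RMA, which equalises the distribution of values between arrays, so a shift shared by most genes is lost and changes of dim genes are understated. The processing notes also name Partek, and versions were not given in the sources used here. The number of arrays, 6 per group, limits the precision, and no gene was filtered out.

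Groups came from the titles. Differences were fitted over all 22309 genes with limma 3.58.1 (lmFit, eBayes) in R 4.3.3, with the GFP mean subtracted from the ChREBP mean, two-sided p-values and the Benjamini-Hochberg correction. Called genes had an adjusted p under 0.05, and a 1.5-fold change was a second threshold. SE and 95% intervals are those of the fit. The test was checked on simulated data.

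Members, their symbols and their roles were chosen with earlier results of these data known. All members are named. Those changed by at least 1.5-fold and the sensors were to be given with their values per group, and further genes were added after their values were seen. As no other row had a name, the planned lists of further pathway genes and cell type markers were not used here. Motif matches were counted in RefSeq promoter windows, and the second ER stress element was added later. Alternatives were 2 further quantile or loess normalizations, centring, 2 filters on dim genes, other eBayes settings, array weights, the methods' test (a per-gene analysis of variance), the replicate number as a block and fits without livers.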

Additional observations from a re-analysis of the deposited data

Results flagged for a closer look

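Each member, and each mean over a role, was searched in both groups for 1 liver far from the other 5. This gave 6 cases, from 4 livers, in 78 groups of values, and chance flags about 1 in 20, or 3.9. These groups of values share livers and genes, so that number is a rough guide. GFP liver 3 was low for Manf (10.41, the next GFP liver at 10.72), for the mean of the chaperones (-0.19 against -0.02) and for the mean of the disulfide isomerases, Creld2 and Manf (-0.32 against -0.01). Canx was high in GFP liver 4 (12.37, the next at 12.30), and P4hb was low in GFP liver 6 (11.85, the next at 11.94). The mean of Xbp1 and Creb3l3 was highest in ChREBP liver 4 (-0.21, the next at -0.37).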

How the results depend on the processing

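Under 24 alternatives, 1 of them chosen after seeing the data and 1 with an unadjusted p (the methods' test), the number of members called ranged from 21 to 25 (23 as reported), that of lower members from 17 to 21 and that of members changed at least 1.5-fold from 5 to 9, while 4 members were higher in each. The median log2 change of the members ranged from -0.36 to -0.28. All genes called ranged from 4686 to 7290 with an adjusted p, and were 8558 with the unadjusted one. Without each liver in turn 23 to 24 members were called. Of the 23 called members, 20 passed the test under every alternative, the exceptions being Creld2, Hsp90b1 and Atf5, and 6 of the other 9 passed under none. Hsp90b1 was at -0.12 after cyclic loess normalization. Signs turned for 3 members that had not passed the test: Atf4 (-0.01 after centring, with array weights and without ChREBP liver 4, -0.03 without ChREBP livers 4, 5 and 6 and GFP liver 6 and without ChREBP livers 4 and 5), Ppp1r15a (-0.03 after a second quantile normalization, -0.09 and -0.02 without those 2 sets of livers) and P4hb (0.01 after cyclic loess). Leaving out 1 liver each gave -0.01 to 0.05 for Atf4. The cause was not tested. The replicate numbers did not clearly pair the livers. Deviations of same-numbered livers correlated between -0.06 and 0.24, the highest in replicate 6. Of 6 GFP livers, 1 correlated best with its own number. With the replicate block 20 members were lower and 4 higher, Asns (-0.82, adjusted p = 0.0129) being the gain. All 32 members lay above the 50th percentile of mean level.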
